A study of Saccharomyces cerevisiae with 6 samples.

Results

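The data below describe 300 array spots whose nascent transcription, relative to the rest of the genome, differed least between 6 strains of the budding yeast Saccharomyces cerevisiae. They were selected on the measured run-on values themselves, from 6144 spots on an array of entire open reading frames. Whether every spot carries such a frame could not be checked here. For every spot and array, L is the log2 ratio of the background-subtracted run-on signal to the genomic DNA signal of the same membrane, minus the median of that ratio over the array. An L of 0 is thus the level of the middle spot of the array, and 1 log2 unit is a 2-fold difference. The genomic DNA signal had to reach 2 in S/N, the ratio of signal to noise, on all 7 membranes, which 2064 spots did. The run-on signal had to reach an S/N of 5 on all 18 arrays, which 1735 spots did. Both held for 996 spots. The 300 of these with the highest mean L were left out, and of the remaining 696 candidates the 300 with the smallest range of the 6 strain means of L became the members.

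The haploid strain was BY4741 wild type. The wild-type diploid, triploid and tetraploid were PY4993, PY4997 and PY4996, and the 2 deletion strains were labelled as cln3Δ and whi5Δ mutants. All were described as growing exponentially in rich medium (YPD). One label conflicts with this: the title, description and strain of the cln3Δ sample name the deletion, but its source reads as wild-type cells in YPD with added potassium chloride, so the main counts are also given without its arrays. Each strain had 3 arrays, named run-on 1, 2 and 3. Whether these were separate cultures is not stated in the labels. A p-value here thus reflects the spread between these arrays and nothing wider, and their small number limits the precision. Per the series text, strains were chosen to differ in cell volume.

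Genomic run-on opens cells with the detergent sarkosyl and lets polymerases that are already on the DNA elongate for a few minutes in the presence of radioactive UTP. The radioactivity bound by a spot therefore reflects how many polymerases were transcribing its open reading frame, not the amount of mature mRNA. Cell volume in yeast rises with ploidy and with a delayed G1 phase. The cyclin Cln3 acts in G1 to start a new cycle, and cells without it divide at a larger size. Whi5 holds back the transcription of G1/S genes until Cln3 and other cyclins act on it, and cells without it divide at a smaller size. L shows only the level of a spot relative to its array: a change common to all spots of an array is removed by centring.

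The files name a spot by its block row (1 to 16), block column (1 to 24) and position in the block (1 to 16), and the tables used here do not pair these places with genes. The members are therefore given by place, no sequence is shown, and which genes they are, how long they are and what they encode was not analysed here. The label "transcribed" could be checked against S/N alone. On the arrays taken one at a time, the members' median S/N ran from 10.2 to 19.3, and their lowest value on any array was 5.00, at the floor of the rule. L is not corrected for the length of a frame, so an order of L between spots is an order of this ratio and not of polymerases per base.

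The range of the 6 strain means was 0.0861 to 0.332 log2 units over the members, with a median of 0.255. A range of 0.332 is a 1.26-fold difference between the highest and the lowest strain. The 396 other candidates had a median range of 0.472 and reached 2.81, and the 300 spots of highest mean L had a median of 0.517. Over all 996 spots past both floors the median was 0.396. These ranges chose the members and are a description.

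**Figure D1:**
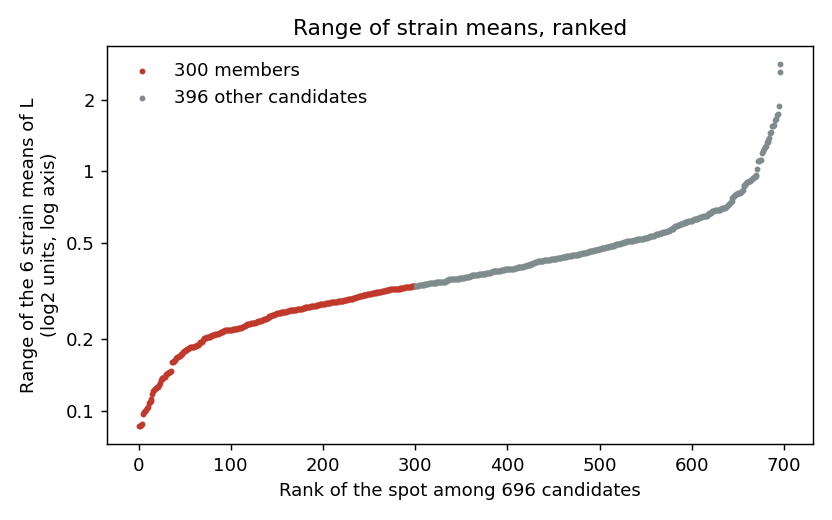
Range of the 6 strain means of L (vertical log axis, log2 units) for the 696 candidates in rank order (horizontal axis), with the 300 members in red and the 396 other candidates in grey. The curve has no step at the boundary, where either side reads 0.332, and it steepens among the last candidates, up to 2.81.

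No gap separates the members from the rest. The last spots inside were row 7, column 11, position 14 and row 16, column 21, position 4, both with a range of 0.332. The first spots outside were row 7, column 3, position 14, also at 0.332, and row 3, column 6, position 8, at 0.333. The boundary is a count of 300 and not a break in the data.

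The spot with the smallest range, 0.0861, lay at row 8, column 7, position 13. Its L on run-on 1, 2 and 3 was -0.05, -0.26 and -0.12 in the haploid, -0.19, -0.15 and -0.33 in the cln3 deletion, and -0.14, -0.18 and -0.10 in the whi5 deletion. The diploid read -0.23, -0.22 and 0.01, the triploid -0.35, 0.07 and -0.12, and the tetraploid -0.54, -0.26 and 0.17. All 6 strains overlapped, and the single tetraploid arrays lay further apart than any pair of strain means. The strain means ran from -0.22 ± 0.09 in the cln3 deletion to -0.14 ± 0.21 in the triploid (SD, n = 3 each). As a ratio to genomic DNA, its level was 0.891 times that of the middle spot of an array.

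At row 14, column 8, position 3 the range was also 0.0861, at a higher level of L. Its 3 values were 0.57, 0.52 and 0.71 in the haploid, 0.58, 0.81 and 0.38 in the cln3 deletion, and 0.33, 0.75 and 0.61 in the whi5 deletion. Diploid arrays gave 0.92, 0.61 and 0.43, triploid arrays 0.45, 0.57 and 0.82, and tetraploid arrays 0.77, 0.43 and 0.58. No strain stood apart: its means ran from 0.56 ± 0.22 in the whi5 deletion to 0.65 ± 0.25 in the diploid (SD, n = 3 each). Its ratio was 1.52 times that of the array's middle spot.

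A close match of strain means did not require close arrays. At row 2, column 20, position 10 the strain means lay within 0.0867 of each other, from 0.57 to 0.65. Its cln3 deletion arrays nevertheless read -0.14, 0.94 and 0.90 for run-on 1, 2 and 3, and its haploid arrays read 0.09, 0.53 and 1.09. The tetraploid arrays, at 0.58, 0.61 and 0.77, were close. The SD within strains was 0.356 for this spot. The difference between run-on 1 and the other arrays was -0.37 (SE 0.13). It passed as a limma contrast (adjusted p = 0.038), but the F test over the 3 run-on numbers did not call this spot (adjusted p = 0.089).

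The fourth of the smallest ranges, 0.0881, belonged to row 10, column 23, position 4, below the array's middle at 0.825 times its level. Its haploid values were -0.61, -0.09 and -0.25, its cln3 deletion values -0.23, -0.28 and -0.33, and its whi5 deletion values -0.15, -0.30 and -0.51. The diploid read -0.18, -0.36 and -0.16, the triploid -0.43, -0.27 and -0.13, and the tetraploid -0.27, -0.18 and -0.29. All strains overlapped again, and haploid run-on 1 gave the lowest value.

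**Figure D2:**
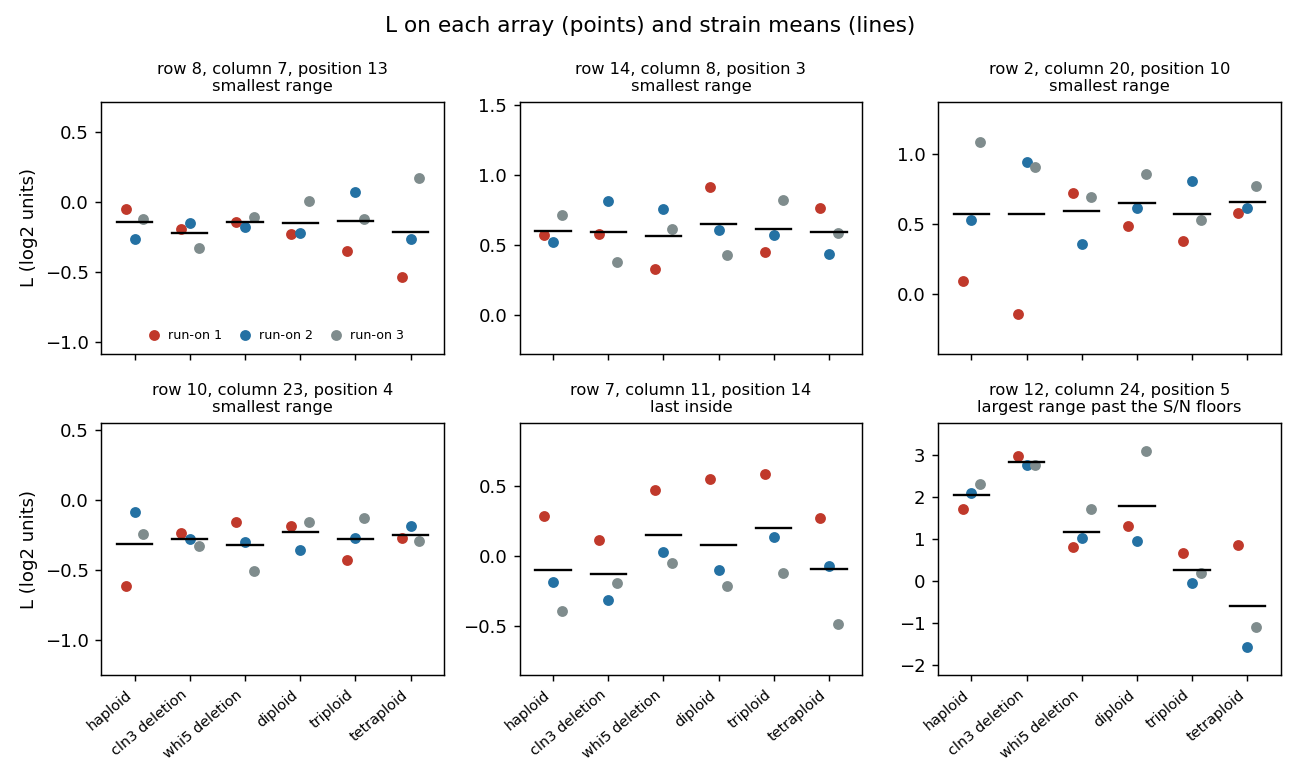
L (vertical axis, log2 units) on each of the 18 arrays for 6 spots, with a point per array coloured by run-on number and a line at each strain mean (n = 3). The panels with the smallest ranges have level lines and scattered points, the last member inside the boundary (row 7, column 11, position 14) has the run-on 1 point on top in every strain, and row 12, column 24, position 5, which is not a member, has lines that run from 2.84 down to -0.59.

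For contrast, row 12, column 24, position 5 had the largest range of the 996 spots, 3.44, and is not a member. It read 2.98, 2.78 and 2.78 in the cln3 deletion and 0.86, -1.55 and -1.09 in the tetraploid, which do not overlap. Its haploid values, 1.73, 2.11 and 2.31, lay between them. The whi5 deletion read 0.81, 1.02 and 1.73, and the triploid 0.68, -0.05 and 0.19. Diploid arrays lay far apart at 1.31, 0.97 and 3.09, the last above every cln3 deletion array. The SD within strains was 0.754, and the lowest run-on S/N was 5.33, near the floor of 5. The limma F test over the 6 strains gave an adjusted p of 0.0045 for this spot. The spot was picked for the range of these same strain means, so nothing is read from that value. The cln3 deletion is the strain with conflicting labels. Without it, the highest strain mean at this spot was 2.05 in the haploid and the lowest remained -0.59 in the tetraploid.

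The members covered a broad span of L. Their mean L ran from -2.33 to 0.90 with a median of 0.13, against 0.22 in the other candidates. The rule set the upper end by leaving out the highest 300 spots. Members made up 26.9% of the 52 candidates with a mean L of -1 or less, 46.8% of the 62 from -1 to -0.5, 50% of the 150 from -0.5 to 0, and 47.8% of the 232 from 0 to 0.5. Of the 200 candidates above 0.5, 35.5% were members. Spots near the array's middle were thus taken more often than those at either end of the candidates.

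The highest member, row 11, column 10, position 1, was at 1.87 times the array's middle spot. Its values were 1.23, 0.78 and 0.95 in the haploid, 0.71, 0.69 and 0.70 in the cln3 deletion, and 1.03, 1.20 and 0.85 in the whi5 deletion. Diploid arrays gave 1.10, 0.76 and 0.96, triploid arrays 0.80, 0.74 and 0.89, and tetraploid arrays 0.88, 1.10 and 0.89. The 3 cln3 deletion arrays lay close together and below every array of the other strains, yet the strain mean of 0.70 kept the spot inside the boundary with a range of 0.329. Without the cln3 deletion its range was 0.214. The second highest, row 4, column 10, position 5, had a mean L of 0.90 and a range of 0.323.

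The lowest member, row 13, column 22, position 14, was at 0.199 times the array's middle. Its L was -2.07, -2.12 and -2.44 in the haploid, -2.10, -2.43 and -2.49 in the cln3 deletion, and -2.13, -2.19 and -2.58 in the whi5 deletion. Diploid arrays gave -2.04, -2.53 and -2.82, triploid arrays -2.41, -2.32 and -2.24, and tetraploid arrays -2.10, -2.54 and -2.39. Its low ratio went with a strong genomic DNA signal, 10.4 on the log2 scale against a member median of 6.46, and its run-on S/N was never under 20.7. A low L therefore does not mean a run-on signal near background at this spot.

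Apart from level, the members resembled the other candidates in signal quality. The lowest genomic DNA S/N of a spot had a median of 4.56 in members and 4.48 in other candidates, and the lowest run-on S/N had medians of 7.97 and 8.04. The median log2 genomic DNA signal was 6.46 against 6.57. The SD of that signal between membranes was 0.189 against 0.197. The pixel SD of a spot over its density was 0.397 against 0.385 on run-on arrays. Among candidates ordered by genomic DNA signal and cut into bins of 174, members made up 42.0%, 50.6%, 44.3% and 35.6% from the weakest to the strongest bin.

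Members were not spread evenly over the membrane. In block rows 9 to 12, 119 of 226 candidates were members (52.7%), against 181 of 470 (38.5%) in the other rows. These rows were singled out after the values were seen, and no test was made. What the spots printed there have in common was not analysed here.

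The arrays of a strain were set beside the strain means. Because the rule took spots with close means, and a mean of 3 arrays varies less than a single array, the members' counts here follow largely from the choice. In 299 of 300 members the strain with the widest spread had a distance between its own 3 arrays that exceeded the range of the 6 strain means, and in 254 the median strain did. In 92 members every strain did. The same counts were 336, 173 and 29 among the 396 other candidates and 260, 146 and 30 among the 300 spots of highest mean L. Without the cln3 deletion, where a range over fewer strains cannot be wider, the members' counts were 299, 261 and 121. The members' median distance between the highest and lowest array of a strain was narrowest in the tetraploid (0.352), the cln3 deletion (0.365) and the diploid (0.369), followed by the haploid (0.398) and the whi5 deletion (0.408), and widest in the triploid (0.435). Because a strain mean averages these same arrays, the choice by strain means also favours spots with close arrays: the SD within strains had a median of 0.237 in members (0.0896 to 0.629) and 0.269 in other candidates.

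That spread bounds how constant a member can be said to be. The standard error of a difference between any 2 strains had a median of 0.199 over members, and its 95% interval, before any adjustment over the 15 pairs of strains, reached a median of 0.419 to either side (0.28 to 0.925). This spread holds the difference between run-on numbers described below, since every strain had 1 array of each number. Whether that difference was alike in all strains was not tested. With run-on number as a block, the standard error had a median of 0.159 and the interval reached 0.336 to either side (0.240 to 0.596). In either fit the median reach of the interval to 1 side exceeded the members' median range of 0.255. The tightest member, row 6, column 7, position 9, had an SD within strains of 0.0896 and an interval of 0.28 to either side, and its means ran from -0.30 in the cln3 deletion to -0.04 in the triploid. The next, row 9, column 6, position 11, had an SD of 0.0951 and a range of 0.217.

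The strain at the top and at the bottom of the range varied between members. The triploid was highest in 69 members and the diploid in 62, then the whi5 deletion in 46, the cln3 deletion and the tetraploid in 42 each and the haploid in 39. The whi5 deletion was lowest in 68 and the cln3 deletion in 66, then the haploid in 45, the diploid in 44, the tetraploid in 43 and the triploid in 34. Over all 696 candidates, from which the rule took the closest means, the cln3 deletion was lowest in 192 (27.6%) and the whi5 deletion in 149 (21.4%), against 22% and 22.7% of members. The triploid was highest in 140 of these candidates (20.1%) and the diploid in 132 (19.0%), against 23% and 20.7% of members. Without the cln3 deletion, the whi5 deletion was lowest in 82 of 300 members, the triploid highest in 80 and the haploid highest in 52. Among the 396 other candidates these counts were 105, 83 and 106, so there the haploid was highest most often. The members' median deviation from the mean of the 6 strains lay between -0.02 in the cln3 deletion and 0.03 in the triploid. With strain as the only factor, the limma F test over all 996 spots called 0 of 300 members at an adjusted p under 0.05, and 0 had an unadjusted p under 0.05. It called 29 of the 996 (2.91%). Fitted on all 5845 spots with a value on every array, it called 0 members and 138 spots (2.36%). Without the cln3 deletion it called 0 members and 15 of the 996. The rule chose the members on this same contrast, so nothing is read from these counts.

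Constancy of L says nothing on the total. Before centring, the members' median ratio of signal to genomic DNA, on the log2 scale, was 0.95 ± 0.29 in the haploid, 0.64 ± 0.52 in the cln3 deletion and 0.87 ± 0.75 in the whi5 deletion (SD, n = 3 each). The diploid gave 0.98 ± 0.47, the triploid 1.36 ± 0.73 and the tetraploid 0.96 ± 0.61. The 6 strains overlapped, and single arrays ran from 0.04 in cln3 deletion run-on 1 to 2.12 in triploid run-on 3. No source used here states the exposure or how much labelled RNA went onto a membrane, and such a level is therefore no transcription rate per cell.

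The same measure could be read in arrays that the choice had not used. The rule was applied to the 12 arrays of 2 run-on numbers, and the range over the 6 strains was then read on the 6 arrays of the number left out, 1 array per strain. With run-on 3 left out, 300 of 728 candidates were chosen at a median range of 0.289, and on the run-on 3 arrays these spots had a median range of 0.468, against 0.647 for the candidates not chosen. With run-on 2 left out the medians were 0.470 and 0.664, and with run-on 1 left out 0.530 and 0.678. A range over single arrays is wider than one over means, so the comparison to make is between the chosen and the other spots of the same arrays. The run-on S/N floor was applied to the 12 choosing arrays alone. A candidate could therefore lie under that floor on the arrays read.

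In each of these readings the chosen spots lay lower, with wide overlap. Of the 300, 210 (70%) fell below the median of all candidates with run-on 3 left out, 207 (69%) with run-on 2 and 199 (66.3%) with run-on 1. A range above 1 log2 unit occurred in 4, 8 and 20 of the 300 chosen spots in the same order. It occurred in 64 of 428, 94 of 446 and 106 of 573 of the other candidates. The lists chosen this way shared 222, 219 and 199 of their 300 spots with the members. Without the cln3 deletion, the medians of chosen and other spots were 0.465 and 0.579 on run-on 1, 0.451 and 0.592 on run-on 2, and 0.423 and 0.575 on run-on 3. These ranges cover fewer strains and are narrower by construction. Both sides of each reading share the genomic DNA signal of their membranes, and no test was made. The choice also favours spots with close arrays within a strain. A lower range on single arrays therefore does not separate constancy between strains from a smaller spread of arrays.

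**Figure D3:**
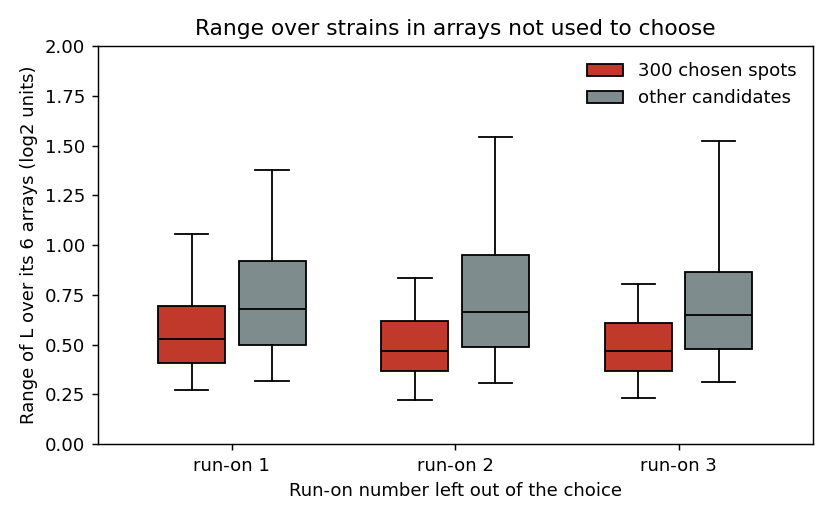
Range of L over the 6 strains (vertical axis, log2 units) on the arrays of the run-on number that was left out of the choice (horizontal axis), for the 300 spots chosen on the other arrays and for the other candidates. Boxes span the middle of the distribution with a line at the median, whiskers reach the 5th and 95th percentiles, and the chosen medians of 0.530, 0.470 and 0.468 lie below 0.678, 0.664 and 0.647.

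The members were called for a difference between run-on numbers about as often as all spots past the floors. Every strain had 1 array of each number. A difference between numbers that all strains share leaves the range of their means as it is, and the rule did not use it. With strain as a covariate, the limma F test over run-on numbers called 82 of 300 members (27.3%) at an adjusted p under 0.05, against 277 of 996 spots (27.8%). It called 111 of the 396 other candidates (28.0%) and 84 of the 300 spots of highest mean L (28%). The members' share was close to that of the background in this fit. Without division by genomic DNA the shares were 10.3% of members and 14.6% of the 996 spots. Fitted on all 5845 spots, the test called 71 members (23.7%) and 1249 spots (21.4%). Without the cln3 deletion arrays it called 79 members (26.3%) and 253 of the 996 spots (25.4%). The test was added after the values had been seen.

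The difference lay between run-on 1 and the other numbers. Run-on 1 was higher than run-ons 2 and 3 in 52 members (17.3%) and lower in 69 (23%), where the background was 12.7% higher and 26.2% lower. Run-on 3 differed from run-on 2 in 0 members and in 0 of the 996 spots (0%) by the limma contrast. With the run-on 1 arrays left out, the test of the remaining numbers called 0 spots, with 11 of the 996 and 1 member at an unadjusted p under 0.05. The run-on 1 difference ran from -1.04 to 0.82 over members, and its size had a median of 0.211. That size was larger in the other candidates (0.247) and in the 300 spots of highest mean L (0.252). The run-on 3 difference from run-on 2 stayed between -0.27 and 0.27, with a median size of 0.0586.

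The largest fall in run-on 1 was at row 12, column 13, position 15, which also had the largest SD within strains of any member, 0.629. Its L on run-on 1, 2 and 3 was 0.04, 1.00 and 1.06 in the haploid, -0.14, 0.99 and 1.11 in the diploid, and -0.13, 0.98 and 1.20 in the triploid. It was -0.34, 1.03 and 0.98 in the tetraploid, 0.20, 0.72 and 0.56 for cln3Δ, and -0.09, 0.93 and 1.03 for whi5Δ. The 6 run-on 1 values lay below the other 12 without overlap. Relative to the other numbers run-on 1 fell by 1.04 (SE 0.10, limma adjusted p = 2.9e-06), while the 6 strain means stayed within 0.21 of each other.

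The largest rise was at row 12, column 5, position 15, the second lowest member in mean L. On run-on 1 the haploid read -1.35, cln3Δ -1.39, whi5Δ -1.55, the diploid -1.62, the triploid -1.30 and the tetraploid -1.64. The other 12 arrays read between -2.49 and -1.94, again without overlap. The difference was 0.82 (SE 0.09, limma adjusted p = 1.1e-05), at a range between strains of 0.167.

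The second largest SD within strains, 0.541 at row 11, column 4, position 15, was of the same kind. Its run-on 1 values lay between -0.70 and -0.09, and run-on 1 fell by 0.89 (SE 0.10, limma adjusted p = 8.9e-06). Among all members, the 6 run-on 1 arrays lay above the other 12 without overlap in 14 and below in 27, together 13.7%. The share was 5.30% in the other candidates and 7.93% over the 996 spots. Differences between strains blur such a separation, and the rule chose spots where these are small. The members' higher share can therefore follow from the choice, and nothing is read from it. With strain as a covariate, the limma F test over run-on numbers called 27.3% of members and 27.8% of the 996 spots. The part of the members' smaller spread within strains was not tested.

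Signal strength was read beside this difference. Median run-on signal over all spots was 38.99 to 108.1 on run-on 1, 55.8 to 134.1 on run-on 2 and 73.6 to 166.4 on run-on 3. Background medians were 10.1 to 18.8, 12.8 to 39.4 and 17.8 to 29.6 in the same order. The members' median S/N was 10.2 to 17.6 on run-on 1, 12.1 to 16.3 on run-on 2 and 13.9 to 19.3 on run-on 3. These signals overlap between the numbers when the strains are pooled. Within a strain, the members' median S/N was lower on run-on 1 than on run-on 3 in all strains but the tetraploid. The tetraploid had 17.6 on run-on 1 and 14.9 on run-on 3. The part of signal strength in the difference was not tested.

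**Figure D4:**
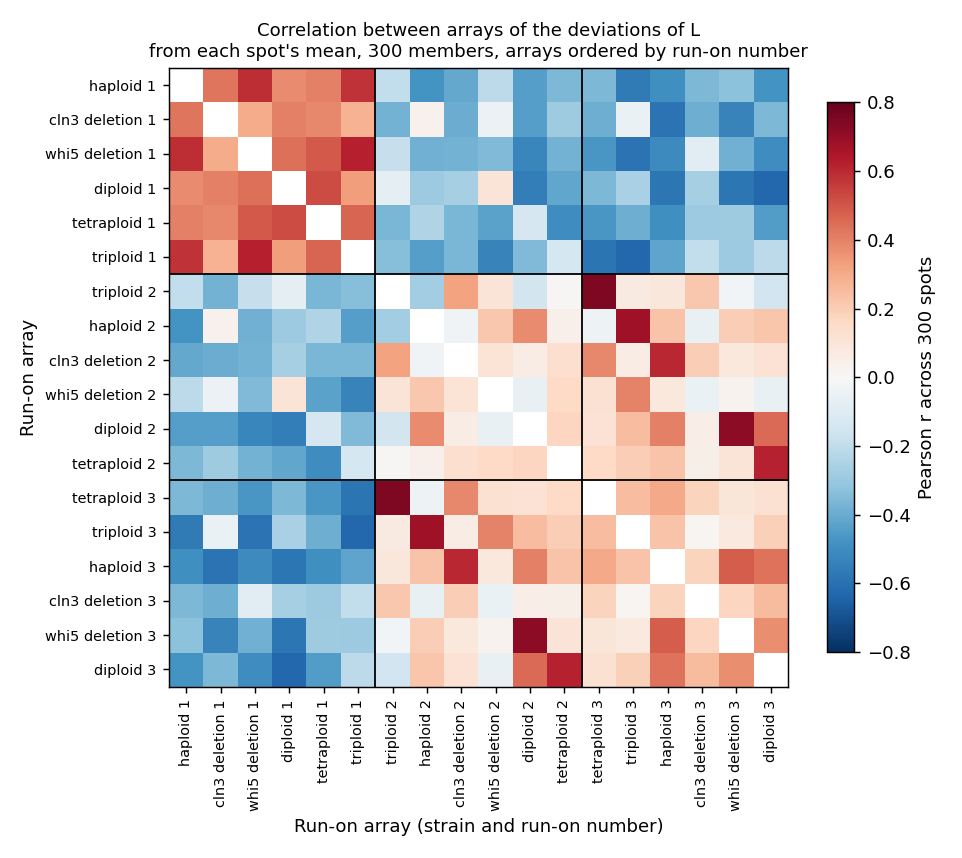
Pearson correlation (colour) across the 300 members between the deviations of L from each spot's mean over 18 arrays, for every pair of run-on arrays on both axes, ordered by run-on number and then membrane, with lines between the numbers. The run-on 1 block is positive throughout (0.28 to 0.62), its pairs with run-ons 2 and 3 are mostly negative, and single dark cells between run-ons 2 and 3 are pairs on the same membrane (0.61 to 0.74).

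Deviations of L from each member's own mean were compared between arrays by run-on number, membrane and strain. Membranes were reused: haploid run-ons 1 to 3 were on membranes 12, 13 and 14, those of the cln3 deletion on 13, 14 and 15, and those of the whi5 deletion on 15, 16 and 17. The diploid was on 16, 17 and 18, the triploid on 18, 12 and 13 and the tetraploid on 17, 18 and 12. No membrane carried 2 arrays of the same number. In the 15 pairs of run-on 1 arrays the deviations correlated with r between 0.28 and 0.62 (median 0.43). In the 5 pairs of run-on 2 and 3 arrays on the same membrane r lay between 0.61 and 0.74 (median 0.68). In the 12 pairs of a run-on 1 array with another array of its strain r lay between -0.63 and -0.34. A difference between run-on 1 and the rest by itself gives such signs, since each mean holds all 18 arrays. Away from run-on 1, the median r was 0.16 in the 30 pairs of the same number, with a lowest value of -0.28, and 0.18 in the 6 pairs of the same strain. The choice by close strain means also removes deviations that a strain's arrays share. The points behind each r are spots of the same arrays and not replicates, and arrays of the same membrane share their genomic DNA divisor.

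Distances between arrays gave a similar account. The median absolute difference of L over members was 0.246 in the 18 pairs of the same strain, 0.212 in the 15 pairs on the same membrane, 0.179 in the 45 pairs of the same run-on number and 0.244 in the 75 pairs that share none of these. Without run-on 1 arrays, the distance was 0.162 for the 6 pairs of the same strain, 0.109 for the 5 pairs on the same membrane, 0.176 for the 30 pairs of the same number and 0.176 for the 25 pairs that share nothing. Away from run-on 1, pairs of the same number were thus no closer than pairs of the same strain, and pairs on the same membrane were the closest. Without the cln3 deletion these distances were 0.164, 0.109, 0.179 and 0.178 in the same order. The members were chosen for small distances between strains, which lowers the distance of pairs from different strains. Among the spots of highest mean L, which the rule left out, the medians were 0.345 for the same strain, 0.302 for the same membrane, 0.289 for the same number and 0.366 for none. Without run-on 1 they were 0.201, 0.177, 0.314 and 0.313.

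**Figure D5:**
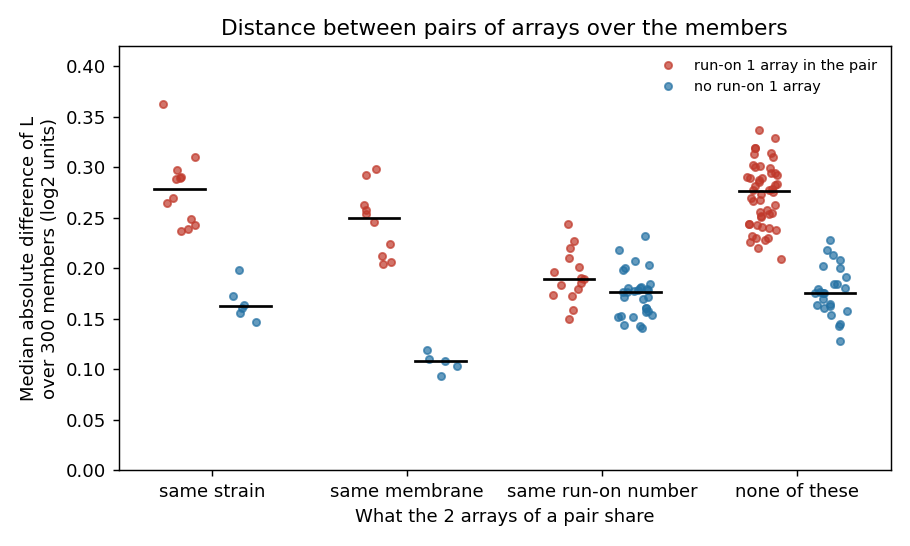
Median absolute difference of L over the 300 members (vertical axis, log2 units) for each pair of run-on arrays, grouped by what the pair shares (horizontal axis), with a point per pair and a line at the median of each kind. Pairs with a run-on 1 array (red) lie mostly higher than pairs without (blue), least so among pairs of the same number, and the 5 blue pairs on the same membrane are the closest, near 0.109.

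The run-on 1 difference varied with place on the membrane. Its median over the 150 members at positions 1 to 8 of a block was -0.16, with 39 above 0, and over the 150 at positions 9 to 16 it was 0.07, with 87 above 0. In block columns 1 to 3 the median over 28 members was 0.19, with 20 above 0, against -0.09 over the 272 in columns 4 to 24, with 106 above 0. The 51 other candidates in columns 1 to 3 had a median of 0.03, with 27 above 0. Single columns varied as much, with members' medians of 0.25 in column 22 and -0.28 in column 13. Across members the correlation with block column was r = -0.09. These groups, like the test of run-on numbers, were set after the values had been seen. Across members the difference correlated with position in the block at r = 0.29 (Spearman's rho 0.31), with mean L at r = -0.26, with log2 genomic DNA signal at r = 0.24 and with pixel SD over density at r = 0.24. Spots share arrays and neighbours, so these are descriptions. No source used here states the order in which membranes were hybridised or the day of each run-on, so run-on number, batch of cells and use of the membrane cannot be told apart.

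Division by genomic DNA changed the precision of this difference more than its size. Its median size over members was 0.211 with the division and 0.217 without. The residual SD, once strain and run-on number were taken out, had a median of 0.183 with the division and 0.260 without. Without it the test called 31 members (10.3%) and 145 of the 996 spots (14.6%), a lower share in members.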

How the data were processed

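The 18 run-on arrays and their genomic DNA hybridisations were read from spot tables. Per the file headers, the deposited density, its pixel SD and its background are intensities per area, and the background-subtracted intensity used here was checked to be the density less its background, with negative results at 0. S/N is a deposited score that sets signal against background. The 18 genomic DNA tables are copies of 7 hybridisations, 1 per membrane (12 to 18). Per the series text, the authors later normalised by median absolute deviation (MAD), and the deposited tables show no such scaling. No source used here names the imaging program. Strain came from sample titles, and run-on number and membrane from the names of the arrays.

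L was computed with Python 3.11.15, numpy 2.4.6 and pandas 2.3.3. Strain means, and run-on numbers with strain as a covariate, were tested by lmFit and eBayes of limma 3.58.1, run in R 4.3.3, on the 996 spots past both S/N floors, with Benjamini-Hochberg adjustment over them and a threshold of 0.05. The fit was tested on simulated data. The named spots are the 4 with the smallest range, the 2 on each side of the boundary, the 2 highest and 2 lowest in mean L, the 2 with the smallest and the 2 with the largest SD within strains, and the spot with the largest range past the floors. The members, lists and rules were chosen with earlier results of these data known. The test of run-on numbers was chosen after seeing the data, as were its largest rise and fall. Gene lists (reference genes, RNA polymerase II, proteasome and others) were not tested, since no table used here pairs spots with genes. Alternatives were other scalings, divisors, S/N floors, measures of spread and blocks, and leaving out strains, run-on numbers and single arrays.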

Additional observations from a re-analysis of the deposited data

How the results depend on the processing

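Under the 35 alternatives to the rule, each of which chose its spots anew, the median range lay between 0.166 (only the wild-type strains) and 0.345 (a run-on S/N floor of 10), and the list depended on the rule. A range over fewer strains is narrower by construction, so 0.166 is not on the same footing as a range over 6 strains. Of 300 members, 192 were shared without division by genomic DNA, 197 with the range over the 18 arrays, 158 with a run-on S/N floor of 2 and 69 with a floor of 10, where only 154 spots were chosen because no more candidates were left. Leaving out arrays kept between 199 and 279, the lowest without run-on 1. With membrane as a fixed block 209 were shared, without the cln3 deletion 221, with only the wild types 201 and with MAD scaling 284. The lists under all 35 alternatives held 7 of the members, and at least 9 of 10 lists held 98. The members called for strain were 0 in all 31 alternatives run. The fit on all 5845 spots with a value on every array called 138 of them for strain. Over the 996 spots the strain calls were 15 without the cln3 deletion (an alternative chosen after seeing the data) and 9 with membrane as a fixed block. With arrays left out they were 2 to 63 (63 without run-on 1, 2 without run-on 2, 6 without run-on 3). With the run-on number as a replicate block they were 67, against 29 in the main fit. The labels do not say that a number marks a shared batch, so the block was kept as an alternative. Over members, the 15 pairs of run-on 1 arrays all correlated (r 0.28 to 0.62). The 30 pairs within run-on 2 or 3 had a median r of 0.16 and a lowest r of -0.28. For run-on number, 31 members (10.3%) were called without genomic DNA division and 145 (48.3%) with membrane as a fixed block. With arrays left out 0 to 87 were called. Over all spots in the fit these calls were 145 (14.6%), 494 (49.6%) and 0 to 282, and 1249 in the fit on all spots. The calls of 0 came from leaving out the run-on 1 arrays. The cause of the other moves was not tested. The range read on arrays not used for the choice averaged 0.490, and its counterpart with the SD was 0.186, a different measure by construction. Signal over background limits the list: only 996 of 6144 spots passed both S/N floors.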
